A study of Homo sapiens with 12 samples.

Results

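The comparison described here sets vehicle-treated neural cultures of the human embryonic stem cell line H9 against undifferentiated H9 cells, across all genes of the deposited expression table. The members were the 3 libraries labelled DMSO_NEUR and the 3 labelled UNDIF, 6 of 12 libraries in the series, and each library carries values for the same 13310 genes. DMSO_NEUR cultures were wild-type H9 taken into neural progenitors in the presence of DMSO, the solvent used as vehicle. UNDIF cultures were wild-type H9 kept on Matrigel in mTeSR, a feeder-free stem cell medium. For the neural cultures, near-confluent cells were moved to Knockout DMEM with 15% Knockout Serum Replacement and the inhibitors A83-10 and dorsomorphin at 2 µM each, and then to an equal mix with neural stem cell medium carrying 20 ng/ml EGF and 5 ng/ml bFGF. The 3 NEUR libraries, from neural cultures with no vehicle named, are used only as a point of comparison. The other 3 libraries, from cultures given the USP7 inhibitor FT671, entered the fit for its estimate of spread and are not described. All labels give a wild-type genotype, while the deposited sheet is titled for a USP7 heterozygote, and a treatment field of the DMSO_NEUR samples reads undifferentiated. Titles and descriptions were followed. The marker values given below run in the same direction for the state of differentiation. They do not bear on the genotype, which was not checked. DMSO dose and the day of harvest were not given, and no label says that replicates came from separate cultures. The tests therefore rest on library-to-library spread, which may be technical.

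H9 cells in mTeSR are in the primed state of pluripotency, in which POU5F1, SOX2 and NANOG hold a self-sustaining circuit fed by FGF and activin signals. Blocking both branches of TGF-beta family signalling, the BMP branch with dorsomorphin and the activin branch with the second inhibitor, is the dual SMAD inhibition route to neuroectoderm, in which PAX6 is among the first factors to appear. EGF and bFGF then select for dividing, radial glia-like neural stem cells that grow attached to a substrate. Medium, inhibitors, growth factors and culture age all differ together between DMSO_NEUR and UNDIF, so their contributions cannot be told apart. The vehicle differs too, and the NEUR libraries, with no vehicle named, are set beside DMSO_NEUR at the end. In bulk RNA, fewer cells of a type and less RNA per cell cannot be told apart either.

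The deposited values are read counts divided by a factor per library, with 1 added. The 1 was subtracted here, and the resulting quantity is called a normalized count. Between 17149947 and 17198800 reads fell on the listed genes in DMSO_NEUR libraries, and between 15906471 and 16072737 in UNDIF libraries. Levels of different genes are not compared, because the values are not divided by gene length. Log2 fold changes are DMSO_NEUR over UNDIF with their standard errors, from limma fitted to log2(normalized count + 1) over all 13310 genes, and a gene was called when its Benjamini-Hochberg adjusted p was below 0.05. By that rule 10660 genes (80.1%) were called, 5208 (39.1%) higher and 5452 (41.0%) lower in DMSO_NEUR, and 2015 (15.1%) were at least 2-fold higher and 2225 (16.7%) at least 2-fold lower. The 3 DMSO_NEUR libraries all lay above the 3 UNDIF libraries for 40.5% of genes and all below them for 42.5%. With this background a single call carries little, and the size of a change and the split of a gene list between directions carry more. The median log2 fold change over all genes was −0.03 with quartiles of −0.64 and 0.58, and list medians below are read against it. Scaling by library totals in place of the authors' factors moved that median by −0.15 and the split to 4332 higher and 6296 lower. For every gene said below to have risen or fallen, the 3 DMSO_NEUR libraries lay wholly to one side of the 3 UNDIF libraries.

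The labelled cell types were checked first against their markers. POU5F1 (ENSG00000204531), the POU factor at the centre of the pluripotency circuit, had 1.95, 2.91 and 0 normalized counts in DMSO_NEUR, against 2624, 2281 and 2472 in UNDIF. This is 5 reads in all in DMSO_NEUR against 7826 in UNDIF, or 1516-fold lower (counting interval 649.5 to 4672) after scaling, at an adjusted p of 5.60e-12. Counting intervals are exact at 95% and cover counting error only. PAX6 (ENSG00000007372), the paired-box factor of human neuroectoderm, had 3754, 4250.1 and 3952 normalized counts in DMSO_NEUR, against 187, 190.1 and 152 in UNDIF, a log2 fold change of 4.50 ± 0.16 at an adjusted p of 9.83e-14. SFRP2 (ENSG00000145423), a secreted WNT antagonist made by early neural progenitors, had 47406, 53376 and 51246 normalized counts in DMSO_NEUR, against 4856, 4242 and 4767 in UNDIF, a log2 fold change of 3.46 ± 0.18. All 3 markers separated the groups without overlap, in the direction of the labels. Of the other undifferentiated-cell markers, TDGF1, an EGF-CFC co-receptor for NODAL, DNMT3B, a de novo DNA methyltransferase, and L1TD1, an RNA-binding protein, all fell, and NANOG was not among the genes analysed here. L1TD1 averaged 74.2 ± 16.4 in DMSO_NEUR and 3429 ± 309 in UNDIF (SD, n = 3 each). Of the other neural markers, the filament protein NES averaged 27738 ± 474 in DMSO_NEUR and 10600 ± 907 in UNDIF, NR2F1 715 ± 52.0 in DMSO_NEUR and 6.30 ± 1.52 in UNDIF, and N-cadherin CDH2 11311 ± 143 in DMSO_NEUR and 3135 ± 105 in UNDIF (SD, n = 3 each), and all 3 rose. SOX1 was not among the genes analysed here. USP7, the deubiquitinase whose inhibition the series studies, had 4054, 3820.1 and 3946 normalized counts in DMSO_NEUR, against 3714, 3932 and 3770.5 in UNDIF, with overlapping groups, a log2 fold change of 0.05 ± 0.06 and an adjusted p of 0.437.

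**Figure D1:**
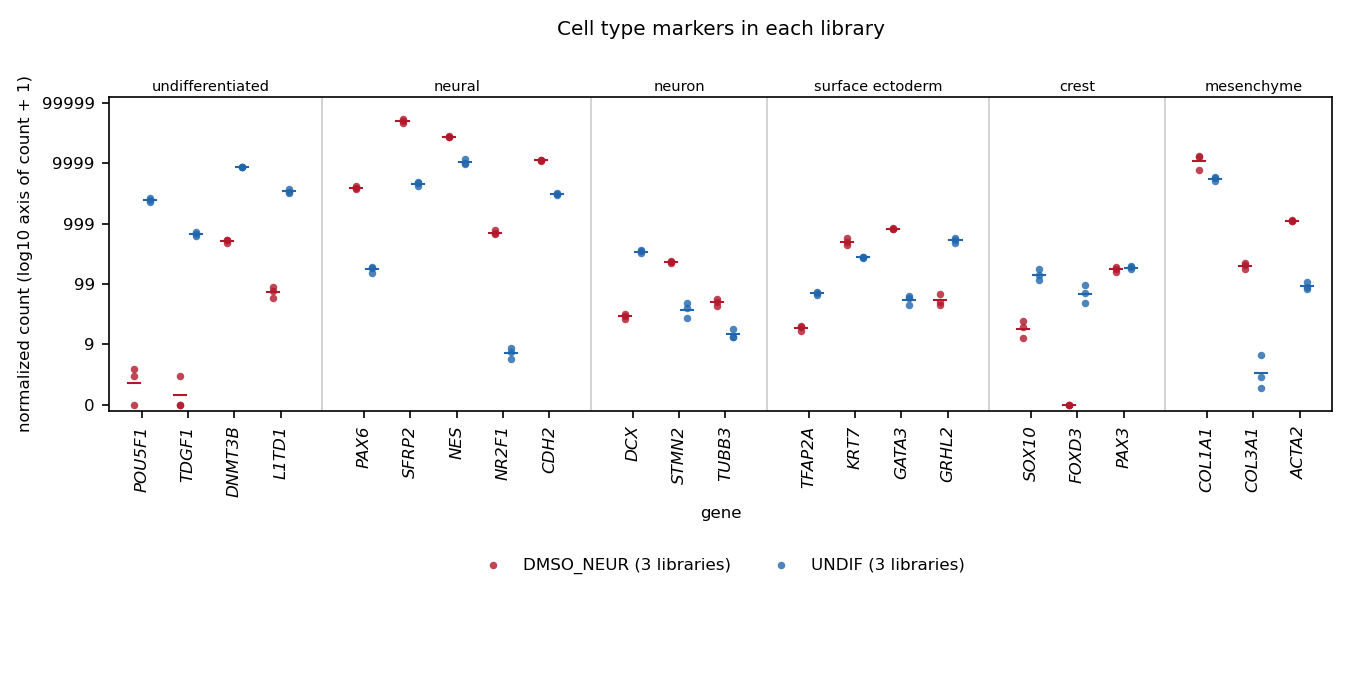
Normalized counts (y axis, log10 of the count plus 1) of cell type markers in the 3 DMSO_NEUR and 3 UNDIF libraries, with a bar at the mean of the log values. POU5F1, TDGF1, DNMT3B and L1TD1 lie lower and PAX6, SFRP2, NES and NR2F1 lie higher in every DMSO_NEUR library than in any UNDIF library.

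The extremes of the comparison were steep in both directions, with 189 called genes (1.42%) at least 16-fold higher and 322 (2.42%) at least 16-fold lower. The 12 largest falls among genes averaging at least 50 normalized counts in one group were led by ESRG, a primate stem-cell transcript of endogenous retroviral origin, followed by POU5F1 and by DAZL, an RNA-binding protein of the germline. ESRG had 0.972, 0.969 and 0 normalized counts in DMSO_NEUR, against 4164, 3362 and 3404 in UNDIF, with scaled reads 5613-fold lower (counting interval 1554 to 46353). DAZL had no read in any DMSO_NEUR library, against 826, 994 and 1009.6 normalized counts in UNDIF libraries, at least 969-fold lower when 3 reads over the group are taken as the floor. CYP26A1, the enzyme that clears retinoic acid, had 1.95, 2.91 and 0 normalized counts in DMSO_NEUR, against 1378, 1381 and 1196 in UNDIF. TDGF1, the WNT target SP5, the pluripotency regulator PRDM14, the bHLH factor HES3, VRTN, which is tied to vertebral number in pigs, the secretoglobin SCGB3A2 and the non-coding transcripts LINC00678 and LINC00698 made up the rest. All 12 were at or near 0 in every DMSO_NEUR library.

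The 12 largest rises were mostly surface and secreted proteins. GASK1B, a Golgi-associated protein of the kinase-like family, had 1203, 1384 and 1374 normalized counts in DMSO_NEUR, against 0, 0 and 0.930 in UNDIF, with scaled reads 4203-fold higher (counting interval 754 to 166050). TNFRSF9, the co-stimulatory receptor 4-1BB, had 782, 1024 and 974 normalized counts in DMSO_NEUR, against 0, 0 and 1.86 in UNDIF. The neural adhesion molecule CNTN6 had 405, 400.0 and 437 normalized counts in DMSO_NEUR, against 1.91, 0 and 0 in UNDIF. These 3 transcripts were at or near 0 in every UNDIF library and far above that in every DMSO_NEUR library. The transglutaminase TGM2, which crosslinks matrix proteins, averaged 39928 ± 2217 in DMSO_NEUR and 168 ± 18.4 in UNDIF, and the integrin subunit ITGB6, part of a receptor that releases latent TGF-beta, averaged 939.7 ± 66.7 in DMSO_NEUR and 3.77 ± 2.48 in UNDIF. SRPX2, a secreted ligand, TNFSF15, a cytokine, CRHBP, which binds corticotropin-releasing hormone, APLN, the apelin precursor, TFPI2, a protease inhibitor of the matrix, and BNC1, a zinc finger factor of stratified epithelia, were others among the 12, which C6orf15 completed.

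**Figure D2:**
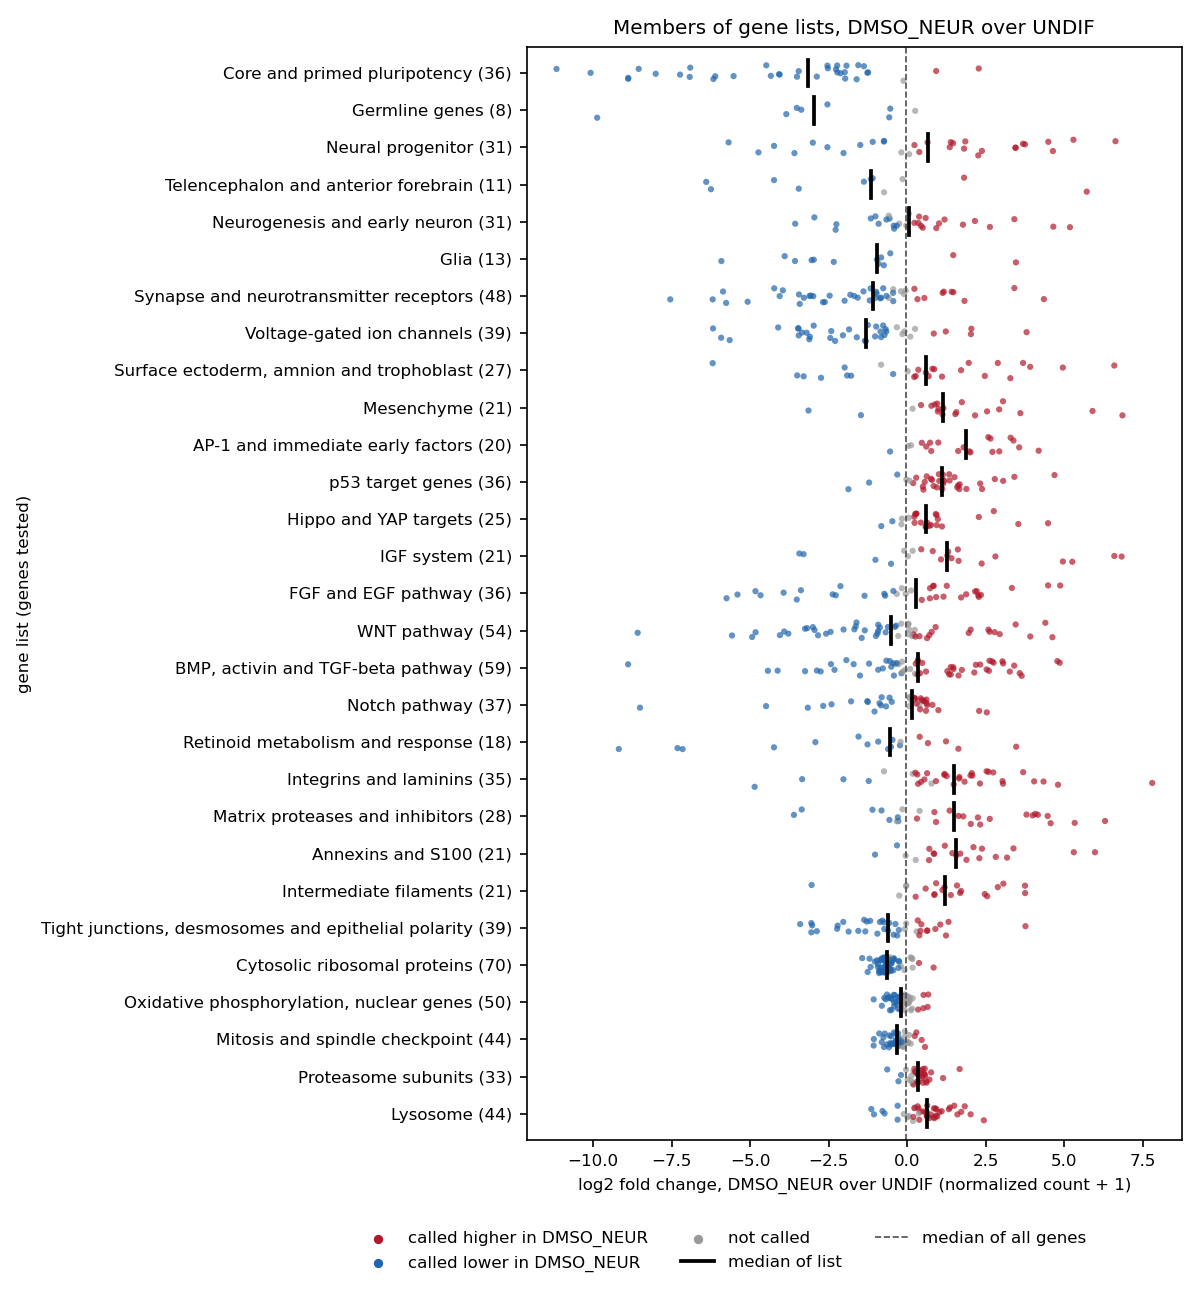
Log2 fold changes, DMSO_NEUR over UNDIF, of the tested members of 29 gene lists (points, x axis; red called higher, blue called lower, grey not called), with a black bar at each list's median and a dashed line at the median of all 13310 genes. The pluripotency and germline lists lie far to the negative side, AP-1, integrins and laminins, matrix proteases, annexins and p53 targets to the positive side, and neural progenitor and neurogenesis genes on both sides.

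Genes of the pluripotent state fell almost without exception. Of 36 tested pluripotency genes 33 fell, all by at least 2-fold, 2 rose and the median log2 fold change was −3.17. The risers were the ETS factors ETV5, with 1233, 1083 and 1218 normalized counts in DMSO_NEUR, against 312, 215 and 210.1 in UNDIF, and a log2 fold change of 2.28 ± 0.13, and ETV4, at 0.92 ± 0.14, both best known as effectors of FGF and ERK signalling. LIN28B, which blocks maturation of let-7 microRNAs, averaged 3418 ± 350.4 in DMSO_NEUR and 3708 ± 377 in UNDIF, with overlapping groups and an adjusted p of 0.379. Its paralogue LIN28A, in contrast, averaged 8861 ± 626 in DMSO_NEUR and 35112 ± 590.3 in UNDIF and fell by a log2 fold change of −1.99 ± 0.09. TRIM71, a let-7 target that sustains stem cells, had a log2 fold change of −2.27 ± 0.09. MYCN had 228, 277 and 265 normalized counts in DMSO_NEUR, against 1252, 1107 and 1171 in UNDIF, while MYC had 963, 771 and 758 normalized counts in DMSO_NEUR, against 229.6, 211 and 174 in UNDIF. MYCN thus fell and MYC rose, with log2 fold changes of −2.20 ± 0.10 and 2.02 ± 0.12.

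Germline genes, several of which are held silent in somatic cells by DNA methylation, fell with pluripotency. Only 8 of 28 listed genes were tested. Of these 7 fell, 5 of them by at least 2-fold, none rose and the median was −2.96. No tested gene averaged below 12.2 normalized counts over the 12 libraries, so genes low in every group are missing. A member such as DAZL, with no read in DMSO_NEUR, could enter only through other groups. The split of this list was therefore partly set in advance. MEIOB, a meiotic recombination factor, had 13.6, 16.5 and 13.7 normalized counts in DMSO_NEUR, against 218, 235 and 217 in UNDIF, and TEX15, which acts in transposon silencing in the mouse germline, averaged 34.7 ± 8.02 in DMSO_NEUR and 404 ± 52.9 in UNDIF. SYCP2, a synaptonemal complex protein, averaged 18.5 ± 2.52 in DMSO_NEUR and 15.4 ± 2.99 in UNDIF with overlapping groups. In the DNA methylation list the writer DNMT3B had 477, 541 and 543 normalized counts in DMSO_NEUR, against 8756, 8684 and 8637 in UNDIF, a log2 fold change of −4.06 ± 0.08, and the oxidising enzyme TET1 had 281, 312 and 313 normalized counts in DMSO_NEUR, against 1626, 1987 and 1762 in UNDIF, a log2 fold change of −2.56 ± 0.16. Both fell without overlap. The DNA-damage inducible proteins GADD45A and GADD45B, linked to demethylation, and ZBTB38, a reader of methylated CpG, rose, ZBTB38 by a log2 fold change of 2.54 ± 0.10. The list as a whole had 8 rises and 5 falls among 18, and library-total scaling turned this to 38.9% rising and 44.4% falling.

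Neural progenitor genes moved in both directions. Of 31 tested, 18 rose and 11 fell, 15 and 9 of them by at least 2-fold, with a median of 0.65. NR2F1, an orphan nuclear receptor that patterns the cortex, had 672, 773 and 701 normalized counts in DMSO_NEUR, against 7.65, 6.59 and 4.65 in UNDIF, a log2 fold change of 6.64 ± 0.25. TNC, a matrix glycoprotein of radial glia, had 42419, 50390 and 53476 normalized counts in DMSO_NEUR, against 1624, 1039.6 and 1113 in UNDIF, a log2 fold change of 5.30 ± 0.15. MEIS1, a TALE homeodomain factor, had 303, 295 and 298 normalized counts in DMSO_NEUR, against 15.3, 10.3 and 8.37 in UNDIF, a log2 fold change of 4.64 ± 0.17. All 3 were higher in every DMSO_NEUR library. In the other direction PTPRZ1, a receptor phosphatase of radial glia, had 102, 138 and 125 normalized counts in DMSO_NEUR, against 6017, 6643 and 6201 in UNDIF, a log2 fold change of −5.69 ± 0.22. FABP7, the brain lipid-binding protein, averaged 18.5 ± 5.08 in DMSO_NEUR and 506 ± 6.71 in UNDIF, and FEZF1, an anterior forebrain zinc finger factor, averaged 149.5 ± 23.2 in DMSO_NEUR and 2835 ± 293 in UNDIF. These 3 genes are known from neural tissue and were higher in every UNDIF library. Summed over the 31 members, normalized counts lay between 205537 and 219892 in DMSO_NEUR and between 84154 and 88168 in UNDIF libraries. Whether some cells of the UNDIF cultures had begun neural differentiation was not tested. HES1 and MSI1, a Notch effector and an RNA-binding protein of neural stem cells, averaged 489.9 ± 41.9 and 1084 ± 92.1 in DMSO_NEUR, against 472 ± 69.2 and 1235 ± 134 in UNDIF, without a call.

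Regional factors set DMSO_NEUR apart from UNDIF in both directions as well. Of 22 listed telencephalic and anterior forebrain genes 11 were tested, and 7 of these fell and 2 rose (median −1.16). With a mean of at least 100 normalized counts required, 0% of them rose, against 18.2% without that filter. LHX5, a LIM factor of the anterior neural plate and diencephalon, had 15.6, 23.2 and 15.6 normalized counts in DMSO_NEUR, against 1781, 1486 and 1524 in UNDIF. DMRTA2, a cortical hem and progenitor factor, went the other way with 124, 138 and 154 normalized counts in DMSO_NEUR, against 3.83, 0 and 2.79 in UNDIF, with scaled reads 63.0-fold higher (counting interval 30.3 to 158). EMX2, of the dorsal telencephalon, averaged 96.3 ± 16.5 in DMSO_NEUR and 28.1 ± 11.7 in UNDIF and rose, while SIX3, OTX2, HESX1 and LHX2, all anterior head factors, fell, SIX3 by −1.16 and HESX1 by −3.45 on the log2 scale. The DLX5 gene, of ventral forebrain and placode, had 2 reads in DMSO_NEUR and 347 in UNDIF. Among 10 tested genes of more posterior regions, from 27 listed, 4 rose and 6 fell. HOXB2, of the hindbrain, had 109.9, 59.1 and 68.4 normalized counts in DMSO_NEUR libraries and no read in any UNDIF library, at least 84.0-fold higher over the floor of 3 reads. DLX5, near 0 in DMSO_NEUR, and HOXB2, with no read in UNDIF, could enter the tested genes only through other groups. The splits of both regional lists were therefore partly set in advance. LMX1B, of the midbrain, had 255, 192 and 212 normalized counts in DMSO_NEUR, against 35.4, 37.6 and 27.9 in UNDIF. Its relative LMX1A, of roof plate and midbrain floor, averaged 7.79 ± 1.72 in DMSO_NEUR and 76.9 ± 7.89 in UNDIF, and the Iroquois factors IRX1 and IRX2 fell by log2 fold changes of −3.57 and −4.08 while IRX3 rose by 1.02.

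Within transcription factor families, paralogues moved in opposite directions. SOX2, shared by pluripotent and neural stem cells, had 1729, 1464 and 1562 normalized counts in DMSO_NEUR, against 10746, 8279 and 8766 in UNDIF, a log2 fold change of −2.54 ± 0.16. SOX21, a SOXB2 factor of neural progenitors, had 199, 204 and 186 normalized counts in DMSO_NEUR, against 2380.5, 2309.8 and 2447 in UNDIF, while SOX9, of gliogenic progenitors, had 657, 663 and 706 normalized counts in DMSO_NEUR, against 298, 219 and 224 in UNDIF. All 3 are neural progenitor factors, and only SOX9 of them rose. The SOX list of 15 split evenly, with 6 rises and 6 falls (33.3% and 40.0% by library totals). In the POU family POU3F2, the neural factor BRN2, had 407, 424 and 465 normalized counts in DMSO_NEUR, against 36.4, 25.4 and 37.2 in UNDIF, and a log2 fold change of 3.69 ± 0.19, whereas POU5F1 and 6 of 8 members in all fell. ZIC2 and ZIC5, zinc finger factors of the dorsal neural plate, both fell. ZIC2 had 101, 117 and 78.2 normalized counts in DMSO_NEUR, against 2841, 2543 and 2758 in UNDIF, and the log2 fold changes of ZIC2 and ZIC5 were −4.78 and −4.79. In the PAX family PAX6 rose, PAX7 had 4 reads in DMSO_NEUR and 513 in UNDIF, and PAX3 averaged 174 ± 15.8 in DMSO_NEUR and 187 ± 11.6 in UNDIF without a call. Among forkhead factors FOXH1, a SMAD partner in NODAL signalling, had 0.972, 1.94 and 0.977 normalized counts in DMSO_NEUR, against 658, 553 and 537 in UNDIF, while FOXC1 and FOXC2, of mesenchyme and vessels, rose by log2 fold changes of 4.09 and 3.15.

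Neuronal genes were mixed in direction. Of 31 genes of neurogenesis and early neurons 15 rose and 12 fell, with a median of 0.05, and library totals gave 41.9% rising and 45.2% falling. L1CAM, an adhesion molecule of axons, had 5137, 5198 and 5196 normalized counts in DMSO_NEUR, against 236, 222 and 163 in UNDIF, and STMN2, a tubulin regulator of growth cones, had 227, 232 and 240.4 normalized counts in DMSO_NEUR, against 47.8, 39.5 and 26.0 in UNDIF. DCX, a microtubule protein of migrating neuroblasts, had 28.2, 25.2 and 31.3 normalized counts in DMSO_NEUR, against 321, 351 and 363 in UNDIF, and MAP2, of dendrites, averaged 501 ± 49.4 in DMSO_NEUR and 2434 ± 173 in UNDIF. L1CAM and STMN2 thus rose, and DCX and MAP2 fell. TUBB3, neuronal beta-tubulin, averaged 49.6 ± 7.22 in DMSO_NEUR and 13.8 ± 2.54 in UNDIF, a log2 fold change of 1.78 ± 0.25 on low counts. Of 67 listed genes of the synapse 48 were tested, and these fell more than they rose, with 33 falls, 10 rises and a median of −1.09. GRIK3, a kainate receptor subunit, had 9 reads in DMSO_NEUR and 712 in UNDIF, or 76.6-fold lower (counting interval 40.1 to 168) after scaling. The glutamate receptor subunit GRIA1 was among the rises, with 175, 184 and 172 normalized counts in DMSO_NEUR, against 8.61, 5.65 and 9.30 in UNDIF. Voltage-gated channels followed the synapse list, 29 falling and 5 rising of 39 tested from 55 listed, with a median of −1.31. The potassium channel subunit KCND2 had 4 reads in DMSO_NEUR and 395 in UNDIF, whereas its silent-subunit relative KCNF1 had 438, 459 and 463 normalized counts in DMSO_NEUR, against 50.7, 24.5 and 25.1 in UNDIF. GRIK3 and KCND2 could enter the tested genes only through other groups, so both splits were partly set in advance. With a mean of at least 100 normalized counts required, 34.6% of synapse genes rose, against 20.8% without that filter. The share of synapse genes at least 2-fold lower was then 30.8%, against 52.1%. For channels the rising share was 8.33%, against 12.8%.

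Glial genes fell in 11 of 13 cases, among them ALDH1L1, a folate enzyme of astrocytes, with 2.92, 4.84 and 3.91 normalized counts in DMSO_NEUR, against 79.4, 57.4 and 79.0 in UNDIF, and a log2 fold change of −3.90 ± 0.43. CD44, a hyaluronan receptor of astrocyte precursors and of many adherent cells, was one of 2 rises, with 1658, 1385 and 1518 normalized counts in DMSO_NEUR, against 164, 134 and 116 in UNDIF. In the list of dorsal roof plate and neural crest 5 of 20 genes rose and 12 fell (median −1.95). Of the crest markers, FOXD3 had no read in DMSO_NEUR, against 93.8, 48.0 and 70.7 normalized counts in UNDIF, and SOX10 averaged 17.8 ± 5.91 in DMSO_NEUR and 144 ± 29.7 in UNDIF. ETS1, SNAI2 and MITF, also factors of migrating crest, were the largest rises, and ETS1 had 4892, 5144 and 5444 normalized counts in DMSO_NEUR, against 662, 565 and 671 in UNDIF.

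Markers of other tissues were examined because an adherent culture could hold such cells. The mesoderm markers TBXT, MIXL1 and MESP1, the endoderm markers SOX17, FOXA2 and GATA6, and TP63 were not among the genes analysed here. Of 8 other mesoderm genes 4 rose, 3 fell and 1 had no call (median 0.44). FOXC1 was the largest rise among them, and KDR, a VEGF receptor of vascular progenitors, had 675, 639 and 804 normalized counts in DMSO_NEUR, against 4207, 3692 and 4778 in UNDIF, a log2 fold change of −2.58 ± 0.27. TBX6, of presomitic mesoderm, had 6.81, 10.7 and 5.86 normalized counts in DMSO_NEUR, against 98.5, 80.0 and 107 in UNDIF. Summed over the list, normalized counts lay between 1200.1 and 1359 in DMSO_NEUR and between 3942 and 5036 in UNDIF libraries, most of the UNDIF sum being KDR, with 1 member at 0 reads in DMSO_NEUR and none in UNDIF. Of 16 listed endoderm genes only 3 were tested, of which 2 fell and none rose (median −2.20). They were HHEX and the forkhead factor FOXA3, with FOXA3 at 54.5, 73.6 and 91.9 normalized counts in DMSO_NEUR, against 351, 306 and 342 in UNDIF, and the sums lay between 177 and 212 in DMSO_NEUR and between 443 and 473 in UNDIF libraries, with no member at 0 reads in either group. The mesoderm and endoderm sums were thus lower in every DMSO_NEUR library, the mesoderm sum on account of KDR. The 4 mesoderm genes that rose, FOXC1, FOXC2, TBX1 and EYA1, were each higher in every DMSO_NEUR library. The mesoderm sum therefore does not describe the list as a whole. For the lists that follow the sums were higher in DMSO_NEUR. Of 27 surface ectoderm, amnion and trophoblast genes 17 rose and 8 fell (median 0.60). GATA3, a zinc finger factor of these tissues, had 829.5, 809 and 841 normalized counts in DMSO_NEUR, against 58.4, 43.3 and 61.4 in UNDIF, a log2 fold change of 3.92 ± 0.11. GRHL2, a master factor of epithelia, had 43.8, 50.4 and 68.4 normalized counts in DMSO_NEUR, against 485, 544 and 574 in UNDIF, and TFAP2A, of surface ectoderm and crest, averaged 17.8 ± 1.97 in DMSO_NEUR and 69.7 ± 4.23 in UNDIF. GATA3 and the keratin KRT7 (509 ± 71.1 in DMSO_NEUR and 278 ± 7.03 in UNDIF) thus rose while GRHL2 and TFAP2A fell. Summed over the list, normalized counts lay between 66450 and 74102 in DMSO_NEUR and between 15132 and 16057 in UNDIF libraries, with 1 member at 0 reads in each group. Among the members, the secreted IGF carriers IGFBP5 and IGFBP3 averaged 17329 ± 2616 and 7097 ± 590 in DMSO_NEUR. In UNDIF they averaged 557 ± 89.5 and 73.0 ± 14.4. A large part of the sum thus came from these carriers, and the sum does not describe the list as a whole. Of 21 mesenchymal genes 18 rose and 2 fell (median 1.15). NT5E, the ectonucleotidase CD73, had 1695, 1267 and 1427 normalized counts in DMSO_NEUR, against 15.3, 15.1 and 6.51 in UNDIF, a log2 fold change of 6.86 ± 0.21. Smooth muscle actin ACTA2 had 1109.6, 1123 and 1146 normalized counts in DMSO_NEUR, against 107, 88.4 and 80.9 in UNDIF, COL1A1 averaged 11263 ± 2912 in DMSO_NEUR and 5592 ± 487 in UNDIF, and COL3A1 is given with the matrix genes. Summed over the list, normalized counts lay between 124864 and 145105 in DMSO_NEUR and between 38158 and 43031 in UNDIF libraries, with no member at 0 reads in either group. Whether a minor population contributed to any of the matrix or adhesion results that follow was not tested.

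Signalling genes were next ordered by pathway, ligands and receptors before targets. In the FGF and EGF pathway 18 of 36 members rose and 14 fell, with a median of 0.29. HBEGF, a membrane-anchored EGF receptor ligand, had 2097, 2514 and 2432 normalized counts in DMSO_NEUR, against 99.5, 70.6 and 69.7 in UNDIF, a log2 fold change of 4.87 ± 0.11. Its receptor EGFR had 2879.5, 3014 and 3293 normalized counts in DMSO_NEUR, against 295, 289.8 and 323 in UNDIF, a log2 fold change of 3.34 ± 0.11. Ligand and receptor were thus both higher in every DMSO_NEUR library. FGFR3 had 53.5, 124 and 110.4 normalized counts in DMSO_NEUR, against 3776, 3784 and 4052 in UNDIF, a log2 fold change of −5.41 ± 0.21, and the ligands FGF8 and FGF19 had 4 reads and 1 read in DMSO_NEUR, against 179 and 215 in UNDIF. Named after their values were seen, FGFR1, FGFR2 and the ligand FGF2 also fell, by log2 fold changes of −1.36, −3.94 and −2.37. DUSP4, a phosphatase induced by ERK that in turn switches ERK off, had 6766, 5829 and 6597 normalized counts in DMSO_NEUR, against 291, 288 and 271 in UNDIF, a log2 fold change of 4.49 ± 0.07. SPRED1, another ERK-pathway inhibitor, averaged 1082 ± 15.1 in DMSO_NEUR and 1119 ± 91.4 in UNDIF with overlapping groups.

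WNT pathway genes fell more often than they rose, 29 against 17 of 54, with a median of −0.50. The secreted antagonists FRZB and SFRP5 fell, FRZB with 62.2, 65.9 and 77.2 normalized counts in DMSO_NEUR, against 2195, 1948 and 2229 in UNDIF, and SFRP5 with 3 reads in DMSO_NEUR and 300 in UNDIF. SFRP2 and DKK2, also secreted antagonists, rose, DKK2 with 80.7, 78.5 and 89.9 normalized counts in DMSO_NEUR, against 11.5, 1.88 and 3.72 in UNDIF. Members of the sFRP family (SFRP2, SFRP5 and FRZB) thus moved both ways. Ligands WNT7A and WNT10A rose, WNT7A with 128, 83.3 and 87.9 normalized counts in DMSO_NEUR, against 11.5, 1.88 and 1.86 in UNDIF, a log2 fold change of 4.40 ± 0.39. The target SP5, a zinc finger factor induced by beta-catenin, had 3 reads in DMSO_NEUR against 2208 in UNDIF, and the receptor FZD2 averaged 1900.1 ± 113 in DMSO_NEUR and 1863 ± 139.8 in UNDIF without a call.

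In the BMP, activin and TGF-beta list 31 of 59 genes rose and 21 fell, with a median of 0.33. Ligand TGFB2 had 1182, 1381 and 1423 normalized counts in DMSO_NEUR, against 67.0, 31.0 and 42.8 in UNDIF, a log2 fold change of 4.86 ± 0.18, and BMP2 had 757, 641 and 767 normalized counts in DMSO_NEUR, against 68.9, 43.3 and 60.4 in UNDIF, a log2 fold change of 3.65 ± 0.14. LTBP2, of the latent TGF-beta binding protein family of the matrix, had 6858, 7243 and 6931 normalized counts in DMSO_NEUR, against 279, 222 and 262 in UNDIF. All 3 rose, in cultures that had been given inhibitors of receptors of this family. Whether the inhibitors were still present at harvest was not given. FST, the secreted activin antagonist follistatin, had 240.2, 279 and 287 normalized counts in DMSO_NEUR, against 5834, 5863 and 5794 in UNDIF, a log2 fold change of −4.44 ± 0.11, and was also called lower than in NEUR. ID4, an inhibitory HLH target of BMP signals in neural tissue, had 189, 204 and 163 normalized counts in DMSO_NEUR, against 3147, 3144 and 3448 in UNDIF, a log2 fold change of −4.13 ± 0.10. The co-receptor TDGF1 and the SMAD partner FOXH1, both needed for NODAL signalling, were among the steepest falls, as given above. GREM1, a BMP antagonist, averaged 4279 ± 496 in DMSO_NEUR and 4498 ± 491 in UNDIF without a call.

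Notch pathway genes showed no one direction, 17 rising and 15 falling of 37, and library totals gave 37.8% rising and 40.5% falling. HEY1, a Notch effector, had 314, 355 and 383 normalized counts in DMSO_NEUR, against 69.8, 75.3 and 66.9 in UNDIF, and HEYL, of the same family, averaged 29.5 ± 10.6 in DMSO_NEUR and 260.5 ± 22.8 in UNDIF and fell. DLK1, an imprinted non-canonical ligand, had 118, 117 and 124 normalized counts in DMSO_NEUR, against 2821, 2768 and 2576 in UNDIF, a log2 fold change of −4.50 ± 0.12. HES3, expressed in early neuroepithelium, had no read in DMSO_NEUR, against 419, 318 and 363 normalized counts in UNDIF, at least 377-fold lower over the floor of 3 reads. In the hedgehog list 4 rose and 6 fell of 16. The transcriptional target GLI1 averaged 61.9 ± 10.1 in DMSO_NEUR and 241 ± 43.2 in UNDIF and fell, while another target, the receptor PTCH1, averaged 1219 ± 50.2 in DMSO_NEUR and 1057 ± 40.3 in UNDIF, an adjusted p of 0.0718 by limma and of 0.00298 by edgeR's quasi-likelihood test.

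Retinoid genes fell in 12 of 18 cases and rose in 5. ALDH1A1, which makes retinoic acid, had 243, 360.3 and 389.9 normalized counts in DMSO_NEUR, against 24.9, 33.9 and 27.0 in UNDIF, a log2 fold change of 3.47 ± 0.21, whereas CYP26A1, which degrades it, was almost absent from DMSO_NEUR as given above. LRAT, which stores retinol as esters, had 8.75, 15.5 and 3.91 normalized counts in DMSO_NEUR, against 1353, 1312 and 1287 in UNDIF, and the binding protein CRABP1 had 15.6, 24.2 and 15.6 normalized counts in DMSO_NEUR, against 3399.5, 2759.5 and 3003 in UNDIF. RARA rose and RARG, among the falling nuclear receptors, averaged 209 ± 2.98 in DMSO_NEUR and 1597 ± 114 in UNDIF. The IGF system moved up more than down, 14 against 4 of 21 (median 1.28). IGFBP3, a carrier of IGFs, had 6551, 7018 and 7723 normalized counts in DMSO_NEUR, against 89.0, 61.2 and 68.8 in UNDIF, a log2 fold change of 6.60 ± 0.11, and IGFBP5 averaged 17329 ± 2616 in DMSO_NEUR and 557 ± 89.5 in UNDIF. Ligand IGF1 had 118, 152 and 158 normalized counts in DMSO_NEUR, against 0.957, 0 and 0 in UNDIF, 440 reads against 1. H19, the imprinted non-coding RNA beside IGF2, had 4470.5, 7641 and 7967 normalized counts in DMSO_NEUR, against 186, 161 and 159 in UNDIF. The insulin receptor INSR and the adaptor IRS4 fell, INSR with 679, 718 and 766 normalized counts in DMSO_NEUR, against 1484, 1485 and 1389 in UNDIF.

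**Figure D3:**
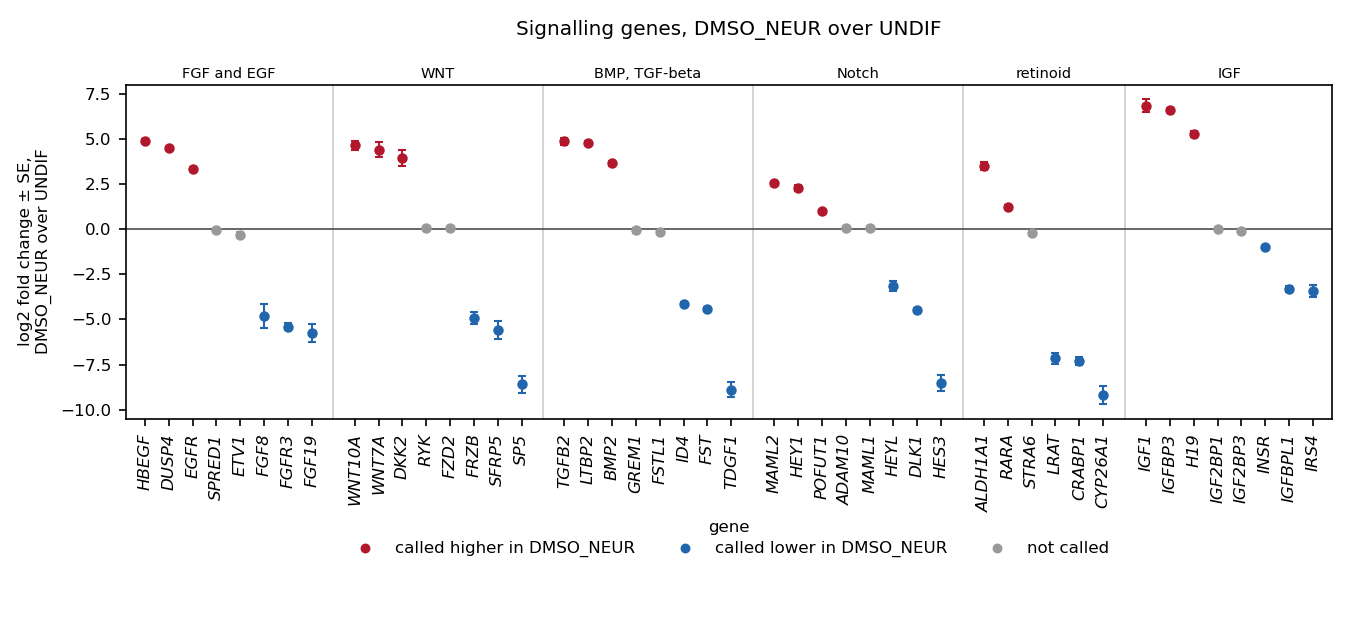
Log2 fold changes on the normalized count + 1 scale (y axis, DMSO_NEUR over UNDIF, bars are standard errors) of named genes in 6 signalling pathways, red where called higher, blue where called lower and grey where not called, with a line at no change. HBEGF, EGFR, WNT7A, TGFB2, BMP2, ALDH1A1 and IGFBP3 lie above the line and FGFR3, FRZB, FST, DLK1, CRABP1 and CYP26A1 below it, and points of genes near 0 reads in one group depend on the added 1.

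Immediate early factors rose almost throughout. Of 20 AP-1 and immediate early genes 17 rose, 12 by at least 2-fold, 1 fell, and the median was 1.89. JUNB had 809, 971 and 1190.2 normalized counts in DMSO_NEUR, against 63.1, 45.2 and 51.1 in UNDIF, a log2 fold change of 4.19 ± 0.14, JUN had 2052, 1859.7 and 1917 normalized counts in DMSO_NEUR, against 258, 105 and 158 in UNDIF, at 3.57 ± 0.20, and FOSL2 had 2246, 2322 and 2376 normalized counts in DMSO_NEUR, against 258, 195 and 213 in UNDIF, at 3.39 ± 0.09. JUN, JUNB and FOSL2 are subunits of the dimeric AP-1 factor that acts downstream of growth factor and stress kinases. KLF6, an immediate early zinc finger factor, averaged 4815 ± 55.7 in DMSO_NEUR and 394 ± 27.7 in UNDIF and rose as well. Targets of YAP and TAZ, the effectors silenced by Hippo kinases in dense epithelia, were among the risers. Of 25 Hippo genes and targets 20 rose, though 5 by at least 2-fold, and 2 fell, while library totals gave 60% rising and 16% falling. ANKRD1 had 17837, 20940 and 21521 normalized counts in DMSO_NEUR, against 1415, 851 and 588 in UNDIF, CCN2 had 22735, 29921 and 31337 normalized counts in DMSO_NEUR, against 3331, 2093 and 1936 in UNDIF, and WWTR1, which encodes TAZ itself, had 1558, 1529 and 1562 normalized counts in DMSO_NEUR, against 239, 215 and 231 in UNDIF.

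Of 36 p53 target genes 31 rose, 21 of them at least 2-fold, and 3 fell (median 1.12). CDKN1A, the CDK inhibitor p21, had 6573, 6327 and 6756 normalized counts in DMSO_NEUR, against 641, 595 and 604 in UNDIF, a log2 fold change of 3.42 ± 0.07. PLK2 and the stress cytokine GDF15 averaged 8496 ± 679.6 and 619 ± 26.6 in DMSO_NEUR, against 328 ± 32.2 and 74.2 ± 13.3 in UNDIF libraries. CCNG1 and TRIM22 were 2 of the exceptions, CCNG1 with 4922, 4433 and 4624 normalized counts in DMSO_NEUR, against 10086, 11697 and 10644 in UNDIF. CDKN2B, the TGF-beta-inducible inhibitor p15, had 361, 424 and 421 normalized counts in DMSO_NEUR, against 14.4, 5.65 and 5.58 in UNDIF, a log2 fold change of 5.52 ± 0.23, and cyclin CCND2 averaged 5930.5 ± 196 in DMSO_NEUR and 1380.0 ± 138 in UNDIF and also rose. Proliferation genes were lower by small amounts. Of 44 mitotic genes 28 fell, 2 by at least 2-fold, and 4 rose, and of 44 replication genes 29 fell and 6 rose. TOP2A, topoisomerase of dividing cells, had 6412, 6566 and 6769 normalized counts in DMSO_NEUR, against 13140, 15016 and 13340 in UNDIF, a log2 fold change of −1.07 ± 0.09, while CENPF averaged 10739 ± 325 in DMSO_NEUR and 11485 ± 1148 in UNDIF without a call. In the BCL2 family 12 of 17 genes rose, among them the pro-death BMF, with 4287, 4878 and 5143 normalized counts in DMSO_NEUR, against 887, 864 and 917 in UNDIF, and the protective BCL2L1, with 7262, 7282 and 7539.7 normalized counts in DMSO_NEUR, against 3505, 2634 and 2945 in UNDIF.

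Adhesion genes changed gene by gene within families. Of 37 cadherins and protocadherins 12 rose and 19 fell. Classical E-cadherin, CDH1, had 854, 879 and 1021 normalized counts in DMSO_NEUR, against 4000.3, 4086 and 3895 in UNDIF, and N-cadherin, CDH2, had 11148, 11408 and 11379 normalized counts in DMSO_NEUR, against 3234, 3146 and 3025 in UNDIF, with log2 fold changes of −2.12 ± 0.08 and 1.85 ± 0.13 (CDH1 was named after its values were seen). Larger changes lay elsewhere in the family. PCDH19, a protocadherin of neural progenitors, had 4579, 5187 and 5519 normalized counts in DMSO_NEUR, against 207, 181 and 194 in UNDIF, a log2 fold change of 4.71 ± 0.14, and CDH5, the cadherin of endothelium, had 531, 749.7 and 808 normalized counts in DMSO_NEUR, against 61.2, 36.7 and 17.7 in UNDIF, a log2 fold change of 4.28 ± 0.28. PCDH18 had 221, 251 and 248 normalized counts in DMSO_NEUR, against 8693, 8677 and 9787 in UNDIF, a log2 fold change of −5.23 ± 0.11, PCDH11X averaged 7.14 ± 3.95 in DMSO_NEUR and 571 ± 52.6 in UNDIF, and CDH9 had 1 read in DMSO_NEUR and 624 in UNDIF. The cadherin-associated catenin CTNND1 averaged 7124 ± 144 in DMSO_NEUR and 7138 ± 238 in UNDIF and was not called.

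Genes of tight junctions, desmosomes and epithelial polarity fell in 25 of 39 cases and rose in 11 (median −0.61). RAB25, a GTPase of epithelial recycling endosomes, had 72.9, 102 and 101 normalized counts in DMSO_NEUR, against 764, 784 and 736 in UNDIF, a log2 fold change of −3.05 ± 0.13. MARVELD3, a tight junction protein, had 36.0, 38.7 and 45.9 normalized counts in DMSO_NEUR, against 373, 308 and 341 in UNDIF, and CLDN11 averaged 6.80 ± 1.92 in DMSO_NEUR and 80.5 ± 6.93 in UNDIF. The largest rise among these genes was that of claudin CLDN1, with 903, 1027 and 972 normalized counts in DMSO_NEUR, against 59.3, 71.5 and 80.9 in UNDIF, and a log2 fold change of 3.77 ± 0.12, and the scaffold TJP1 averaged 4239.6 ± 198 in DMSO_NEUR and 4332 ± 172 in UNDIF without a call. ESRP1, the splicing regulator of epithelial isoforms, had 114, 125 and 110.4 normalized counts in DMSO_NEUR, against 1173, 1490.3 and 1360.0 in UNDIF, a log2 fold change of −3.51 ± 0.10, and was also called lower than in NEUR, as given at the end. MBNL1 and MBNL2, splicing factors of differentiated cells, rose by log2 fold changes of 1.97 and 2.73. SNAI2, which represses epithelial genes through E-box sites, had 281, 189 and 223 normalized counts in DMSO_NEUR, against 16.3, 12.2 and 10.2 in UNDIF, a log2 fold change of 4.06 ± 0.18. ZEB1, a second E-box repressor, named after its values were seen, had 819.8, 763 and 811 normalized counts in DMSO_NEUR, against 171, 154 and 134 in UNDIF, a log2 fold change of 2.38 ± 0.16.

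The 250 bases before the start of 3 falling epithelial genes are shown as examples of what an E-box match looks like, CAGGTG or CACCTG on either strand (in capitals). The 3 were picked for having fallen and for holding a match, so their matches count for nothing about the other falling genes. The genes are RAB25 at chr1:156060910-156061159 on the plus strand, AP1M2, an adaptor subunit of epithelial sorting, at chr19:10587313-10587562 on the minus strand, and CRB3, a polarity protein, at chr19:6464021-6464270 on the plus strand. The sequences are those of RefSeq on GRCh38.p14, 5′ to 3′ on the gene's strand, and AP1M2 and CRB3 were chosen after their values were seen.
RAB25: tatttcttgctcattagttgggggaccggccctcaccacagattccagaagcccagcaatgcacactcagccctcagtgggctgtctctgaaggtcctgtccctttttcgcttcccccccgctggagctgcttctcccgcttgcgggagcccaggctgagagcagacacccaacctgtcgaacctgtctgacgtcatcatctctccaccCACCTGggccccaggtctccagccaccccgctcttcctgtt
AP1M2: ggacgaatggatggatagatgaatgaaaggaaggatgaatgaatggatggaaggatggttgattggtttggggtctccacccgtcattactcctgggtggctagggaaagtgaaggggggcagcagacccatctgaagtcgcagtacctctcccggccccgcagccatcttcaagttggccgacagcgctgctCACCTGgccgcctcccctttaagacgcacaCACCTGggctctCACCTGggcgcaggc
CRB3: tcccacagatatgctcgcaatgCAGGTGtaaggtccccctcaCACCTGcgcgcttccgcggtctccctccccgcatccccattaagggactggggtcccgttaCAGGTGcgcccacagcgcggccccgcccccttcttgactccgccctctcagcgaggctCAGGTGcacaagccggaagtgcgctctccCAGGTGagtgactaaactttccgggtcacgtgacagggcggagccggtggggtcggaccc
RAB25 holds 1 such motif, whose first base lies 41 bases before the start, AP1M2 holds 3, the first 57 bases before the start, and CRB3 holds 5, the first 228 bases before the start. Over all 35116 promoter windows of the table, cut to the same length, 17.5% hold at least 1. That share counts every window, whereas list members are counted by their first window only, so the shares are not on the same unit. Of junction list members with a promoter in the table, 5 of 17 that fell (29.4%), 3 of 6 that rose (50.0%) and 1 of 3 without a call (33.3%) hold at least 1. Only 26 of the 39 tested members had a promoter there, which makes a check over the list void, and a match of letters is a description and not a site. AP1M2 had 142, 152 and 171 normalized counts in DMSO_NEUR, against 1198, 1137 and 1099 in UNDIF, a log2 fold change of −2.88 ± 0.10, and CRB3 had 37.9, 43.6 and 41.0 normalized counts in DMSO_NEUR, against 159, 152 and 143 in UNDIF, a log2 fold change of −1.87 ± 0.12.

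Receptors for matrix rose in most cases. Of 35 integrin and laminin genes 28 rose, 21 by at least 2-fold, and 4 fell (median 1.48). ITGB6 had 866, 959 and 995 normalized counts in DMSO_NEUR, against 4.78, 0.941 and 5.58 in UNDIF, a log2 fold change of 7.81 ± 0.29, and ITGA9, part of a receptor for tenascin and other ligands, had 2022, 2116 and 2198 normalized counts in DMSO_NEUR, against 112, 108 and 90.2 in UNDIF, a log2 fold change of 4.34 ± 0.11. Tenascin-C itself, TNC, was among the progenitor rises above. LAMC3, a laminin gamma chain, and ITGA2B, an integrin of platelets, fell, LAMC3 with 10.7, 4.84 and 7.82 normalized counts in DMSO_NEUR, against 268, 220.2 and 247 in UNDIF. Collagens were divided, 20 rising and 12 falling of 35. COL3A1, of loose connective tissue, had 176, 219 and 205 normalized counts in DMSO_NEUR, against 1.91, 5.65 and 0.930 in UNDIF, 617 reads against 9, and COL8A1 had 895, 1069 and 1075 normalized counts in DMSO_NEUR, against 46.9, 25.4 and 17.7 in UNDIF, a log2 fold change of 5.14 ± 0.22. COL9A3, COL21A1 and COL23A1 fell by log2 fold changes of −5.57, −5.01 and −5.36. Of 28 matrix proteases and their inhibitors 18 rose and 7 fell (median 1.50). ADAMTS18 had 660.3, 877 and 844 normalized counts in DMSO_NEUR, against 8.61, 7.53 and 11.2 in UNDIF, a log2 fold change of 6.30 ± 0.20, the gelatinase MMP9 averaged 509 ± 80.8 in DMSO_NEUR and 20.8 ± 6.04 in UNDIF, and the inhibitor TIMP3 had 6762, 6647 and 6953 normalized counts in DMSO_NEUR, against 204, 143 and 159.9 in UNDIF, at 5.34 ± 0.09. Protease and inhibitor genes therefore rose side by side.

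Annexins, S100 proteins and filaments rose in most cases too. Of 21 annexin and S100 genes 17 rose, 13 by at least 2-fold, and 2 fell (median 1.56). ANXA1, a calcium-dependent phospholipid binder, had 28701, 25907 and 26267 normalized counts in DMSO_NEUR, against 1005, 689.6 and 452 in UNDIF, a log2 fold change of 5.31 ± 0.18, S100A3 had 785, 765 and 890.2 normalized counts in DMSO_NEUR, against 15.3, 5.65 and 18.6 in UNDIF, and ANXA2 averaged 14085 ± 712 in DMSO_NEUR and 1347 ± 90.6 in UNDIF. Of 21 intermediate filament genes 17 rose and 1 fell. Vimentin, VIM, the filament of neural progenitors and mesenchyme, had 43377, 38073 and 40797 normalized counts in DMSO_NEUR, against 3109.5, 3128 and 2819.5 in UNDIF, a log2 fold change of 3.75 ± 0.08. KRT18, a keratin of simple epithelia named after its values were seen, averaged 8134 ± 344 in DMSO_NEUR and 1099 ± 62.6 in UNDIF and rose too, and KRT80 rose by 3.76. The one faller, GFAP of astrocytes, had 9.72, 10.7 and 8.79 normalized counts in DMSO_NEUR, against 100.5, 80.0 and 82.7 in UNDIF. ANXA2, KRT18 and most ribosomal protein genes have processed pseudogenes, so their counts are less certain than those of single-copy genes.

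**Figure D4:**
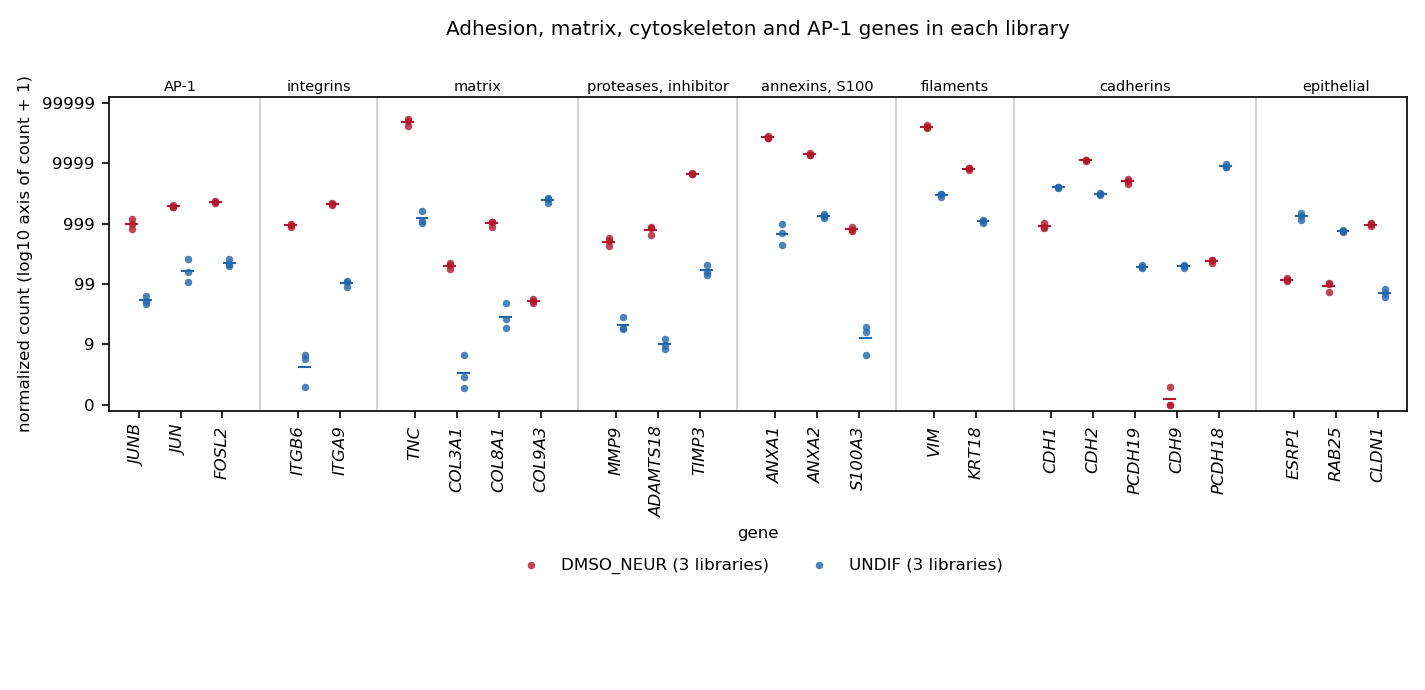
Normalized counts (y axis, log10 of the count plus 1) of AP-1, matrix, protease, annexin, filament, cadherin and epithelial genes in the 3 DMSO_NEUR and 3 UNDIF libraries, with a bar at the mean of the log values. CDH1, CDH9, PCDH18, COL9A3, ESRP1 and RAB25 lie lower and the other genes higher in every DMSO_NEUR library than in any UNDIF library.

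Guidance genes moved both ways. In the Eph family 12 of 18 genes fell and 6 rose. EPHA2 had 5993, 6268 and 6274 normalized counts in DMSO_NEUR, against 1366, 1048 and 1219 in UNDIF, and the transmembrane ligand EFNB2 had 6397, 5772 and 6024 normalized counts in DMSO_NEUR, against 909.9, 908 and 913 in UNDIF, while EPHA1 had 65.2, 95.9 and 93.8 normalized counts in DMSO_NEUR, against 1663, 1558 and 1653 in UNDIF, and EPHA3 had 2 reads in DMSO_NEUR against 493 in UNDIF. The list of semaphorins, plexins, netrins and slits held 22 rises and 17 falls among 46, and 39.1% and 45.7% by library totals. NRP1, a semaphorin and VEGF co-receptor, had 824, 608 and 603 normalized counts in DMSO_NEUR, against 55.5, 57.4 and 64.1 in UNDIF, DCC, the netrin receptor, averaged 200.1 ± 20.5 in DMSO_NEUR and 16.7 ± 3.11 in UNDIF, and the ligand SEMA5B averaged 21.4 ± 6.34 in DMSO_NEUR and 892 ± 37.1 in UNDIF.

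Translation and energy genes moved by small steps in many members. Of 70 cytosolic ribosomal protein genes 61 fell, 5 of them by at least 2-fold, and 2 rose, with a median of −0.63. RPL13A had 8509, 7844 and 8311 normalized counts in DMSO_NEUR, against 20414, 18573 and 20083 in UNDIF, a log2 fold change of −1.26 ± 0.09. RPS27L, a p53-inducible paralogue of RPS27, was one of the risers, with 2106, 1951 and 2074 normalized counts in DMSO_NEUR, against 1120.4, 1140.3 and 1156 in UNDIF. Proteasome subunits ran the other way, 24 rising and 3 falling of 33, or 54.5% and 9.09% by library totals. PSMD2, of the regulatory cap, had 13905, 12433 and 12616 normalized counts in DMSO_NEUR, against 6142, 5535 and 5948 in UNDIF, a log2 fold change of 1.14 ± 0.07. Of 44 lysosomal genes 32 rose and 6 fell (median 0.63), with the protease CTSB at 9738 ± 604 in DMSO_NEUR and 2397 ± 52.9 in UNDIF. Nuclear genes of oxidative phosphorylation fell in 23 of 50 cases and rose in 5, all but 1 of the falls by less than 2-fold. The falling share of 46% lay near the 41.0% of all genes. It depended on scaling, as library totals gave 66% falling and 8% rising.

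Several nutrient transporters changed by large factors. In the glycolysis list the lactate carriers moved in opposite directions, SLC16A3 with 2609, 2465 and 2585 normalized counts in DMSO_NEUR, against 429, 418 and 330.0 in UNDIF, and SLC16A1 with 3074, 3107 and 3263 normalized counts in DMSO_NEUR, against 11795, 13191 and 12701 in UNDIF, while GAPDH averaged 20327 ± 1885 in DMSO_NEUR and 21426 ± 1238 in UNDIF and was not called. PFKP, a phosphofructokinase isoform, averaged 7712 ± 176 in DMSO_NEUR and 1856 ± 63.1 in UNDIF and rose. In cholesterol synthesis 8 genes rose and 11 fell of 23. LSS, which closes the sterol rings, averaged 6172 ± 658 in DMSO_NEUR and 3855 ± 263 in UNDIF and rose, while INSIG1, a sterol-sensing brake on the pathway, averaged 1307 ± 56.7 in DMSO_NEUR and 2186 ± 118 in UNDIF and fell. The arginine and lysine transporter SLC7A3 had 38.9, 39.7 and 34.2 normalized counts in DMSO_NEUR, against 1553, 1650.3 and 1648 in UNDIF, a log2 fold change of −5.39 ± 0.32, and 18 of 28 amino acid transporters fell in all. The enzymes of serine and asparagine synthesis fell, PHGDH with 4729, 4749 and 4887 normalized counts in DMSO_NEUR, against 10102, 9141 and 9481 in UNDIF, and PSAT1 and ASNS by log2 fold changes of −1.23 and −1.26. The stress factor ATF3 and the ER protein HERPUD1 rose, HERPUD1 with 1406, 1169 and 1178 normalized counts in DMSO_NEUR, against 193, 207 and 161 in UNDIF. ELOVL2, which lengthens polyunsaturated fatty acids, averaged 1349.6 ± 36.3 in DMSO_NEUR and 196 ± 13.8 in UNDIF, and ACSL5, an acyl-CoA synthetase, averaged 122 ± 3.63 in DMSO_NEUR and 6.58 ± 2.44 in UNDIF, and both rose.

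Polycomb complexes keep developmental genes silent, and USP7 is known as a partner of variant PRC1. Of 39 Polycomb genes 16 rose and 13 fell, and library totals gave 33.3% and 41.0%. PCGF5, a RING-partner subunit of variant PRC1, had 1341, 1361 and 1423 normalized counts in DMSO_NEUR, against 203, 239.9 and 195 in UNDIF, a log2 fold change of 2.69 ± 0.09. PHC2, of canonical PRC1, had 5097, 5084 and 5035 normalized counts in DMSO_NEUR, against 1126, 1026 and 1076 in UNDIF, at 2.24 ± 0.06, and PHF19, an accessory subunit of PRC2, had a log2 fold change of 1.59 ± 0.07. In the other direction the chromobox subunit CBX2 had 801, 802 and 783 normalized counts in DMSO_NEUR, against 4225, 3712 and 3949.9 in UNDIF, at −2.31 ± 0.08, SCML2 averaged 215 ± 7.99 in DMSO_NEUR and 1037 ± 62.3 in UNDIF, and AUTS2 averaged 1567 ± 99.3 in DMSO_NEUR and 4560.1 ± 504 in UNDIF. Subunits of one complex therefore moved both ways. Among remodellers DPF3, a subunit of neural BAF complexes, had 95.3, 76.5 and 113 normalized counts in DMSO_NEUR, against 3.83, 0.941 and 0 in UNDIF, 293 reads against 5, SMARCA2 averaged 468 ± 49.9 in DMSO_NEUR and 103 ± 4.50 in UNDIF, and the NuRD helicase CHD5 averaged 6.48 ± 1.10 in DMSO_NEUR and 97.4 ± 8.01 in UNDIF and fell. Of the partners of KRAB zinc fingers 7 of 8 fell, TRIM28 by a log2 fold change of −0.50 ± 0.07. Of 38 class I and interferon genes 26 rose and 6 fell, with the interferon-induced IFIT3 at 129, 125 and 168 normalized counts in DMSO_NEUR, against 2.87, 9.41 and 4.65 in UNDIF, and the tethering protein BST2 at 993, 1254 and 1419.8 normalized counts in DMSO_NEUR, against 4432, 4351 and 4570.0 in UNDIF.

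Vehicle cultures were last set beside the neural cultures with no vehicle named. DMSO_NEUR and NEUR differed at 53 genes (0.398%) by the same limma fit, 1 (0.00751%, the channel gene CACNA1F) higher and 52 (0.391%) lower in DMSO_NEUR, and 1059 genes had an unadjusted p below 0.05. The comparison shares the DMSO_NEUR libraries with the one above. Leaving out 1 DMSO_NEUR replicate gave 24, 30 or 31 genes, and a limma fit to the 6 DMSO_NEUR and NEUR libraries alone gave 0, with 729 at an unadjusted p below 0.05. DESeq2 gave 100 and edgeR 72, both without NEUR replicate 3, so these counts differ from the limma counts in libraries as well as in method. The markers averaged 1.62 ± 1.48, 3985 ± 249.9 and 50676 ± 3025 normalized counts in DMSO_NEUR for POU5F1, PAX6 and SFRP2, against 0.978 ± 0.978, 3518 ± 179.8 and 42149 ± 1629 in NEUR (SD, n = 3 each). None of these 3 was called, with adjusted p-values of 0.859, 0.757 and 0.707. Of genes given above 10 were called, all lower in DMSO_NEUR than in NEUR, namely CDH1, ESRP1, FST, EPHA1, RAB25, MARVELD3, AP1M2, CRB3, KRT7 and KRT18. The first 8 were also lower in DMSO_NEUR than in UNDIF, and KRT7 and KRT18 were higher. Of the 39 junction genes 10 were called lower than in NEUR and none higher. ESRP1 averaged 116 ± 7.61 in DMSO_NEUR and 221 ± 23.0 in NEUR, a log2 fold change of −0.92 ± 0.10 at an adjusted p of 3.89e-04. FST averaged 269 ± 25.1 in DMSO_NEUR and 419.5 ± 6.00 in NEUR, at −0.64 ± 0.11 and an adjusted p of 0.0117, and CDH1 averaged 918 ± 90.1 in DMSO_NEUR and 1423 ± 144 in NEUR, at −0.63 ± 0.08 and an adjusted p of 0.00112. AP1M2, shown by sequence above, averaged 155 ± 14.7 in DMSO_NEUR and 270.3 ± 48.5 in NEUR, a log2 fold change of −0.79 ± 0.10 at an adjusted p of 0.00154. RAB25 averaged 91.8 ± 16.3 in DMSO_NEUR and 175 ± 31.2 in NEUR, at −0.93 ± 0.13 and an adjusted p of 0.00215, and CRB3 averaged 40.9 ± 2.83 in DMSO_NEUR and 63.3 ± 6.64 in NEUR, at −0.62 ± 0.12 and an adjusted p of 0.0357. In the fit to those 6 libraries the adjusted p of the 10 genes lay between 0.158 and 0.560. Over the 18 other alternatives ESRP1, CDH1, KRT7, EPHA1, RAB25 and AP1M2 were called in all 18, FST in 17 (adjusted p of 0.0661 without DMSO_NEUR replicate 1), MARVELD3 in 15, KRT18 in 13 and CRB3 in 8. TGFB2, EGFR and JUNB averaged 1329 ± 128, 3062 ± 211 and 989.9 ± 191 in DMSO_NEUR, against 1603 ± 212, 2699.5 ± 545 and 928 ± 128 in NEUR, and none of these 3 was called.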

How the data were processed

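Poly(A) mRNA of 12 H9 libraries was sequenced, and 6 of them, 3 DMSO_NEUR and 3 UNDIF, are compared here. Per the submitters' processing notes, STAR, HTSeq, DESeq2, R 4.3.1 and the hg19 build were used in making the values. The strand setting of the counting was not given in the sources used here, so overlapping antisense genes cannot be told apart. The deposited signal is a read count divided by a size factor, plus 1. After subtracting 1, all values were whole multiples of a step per library (100% within 0.001), so the reads behind each value could be recovered. A further 33 columns of per-sample values match no sample used here and were left out. Of the 13310 genes, 763 had no symbol in the file and 356 of these were named from their identifier. None averaged below 12.2 normalized counts over the 12 libraries. Lists are thus described only by members expressed in some group, which weighs most where many listed genes are missing.

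The main test was limma 3.58.1 in R 4.3.3 on log2(normalized count + 1), with a mean for each of 4 groups over 12 libraries, a trend on mean expression and Benjamini-Hochberg adjustment over all genes at 0.05. It is on the log2(value + pseudocount) scale, which understates the change of low genes. In data simulated from the UNDIF means, 95 of 96 genes changed by 1 on the log2 scale were called. That simulation used a constant spread, known scaling and few changed genes, none of them very low. In the real data 80.1% of genes were called, and chi-square per gene between replicates ran from 2.39 to 13.33. The simulation therefore checks the code and does not give the power of the test here. Count tests on the recovered reads used edgeR 4.0.16 and DESeq2 1.42.0 as alternatives, without NEUR replicate 3. Replicates correlated at 0.9916 or more across genes, against 0.7809 to 0.7909 between DMSO_NEUR and UNDIF, and all replicate pairs differed by more than counting noise. A gene with no read in a group was given a bound over 3 reads, and one with up to 10 reads a read ratio with an exact 95% interval, both covering counting error only. Setting such genes to their bound moved the median of 1 list, the HOX genes.

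The comparison, its 67 gene lists and the cell type markers were chosen with earlier results of these data known. Genes are named by rule: the markers POU5F1, PAX6 and SFRP2 with USP7, the 12 largest called changes each way among genes averaging at least 50 normalized counts in one group, up to 3 rises and 3 falls per list, all members of lists of up to 12, and up to 2 uncalled members per list. Cell type markers are named as a set, and any other gene is said to have been chosen after its values were seen. Other scalings, pseudocounts, filters, designs and left-out libraries were tried as alternatives. Some genes that the rule selects are not reported here.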

Additional observations from a re-analysis of the deposited data

How the results depend on the processing

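The DMSO_NEUR over UNDIF count of 10660 genes ranged over 10114 to 10380 with 1 DMSO_NEUR or UNDIF library left out, and was 10862 with these 6 libraries alone, 10958 by DESeq2 and 11168 by edgeR. Genes at least 2-fold lower fell to 1198 with a mean of at least 100 normalized counts required, since low genes were no longer tested. The DMSO_NEUR over NEUR count of 53 was the least stable, at 0 in limma with 6 libraries alone (729 at an unadjusted p below 0.05) and 100 by DESeq2 without NEUR replicate 3. With 1 library left out it was 24 to 56 (leaving out NEUR libraries was added after seeing the data). The cause was not tested. Same-numbered libraries of DMSO_NEUR and UNDIF did not deviate together (correlations of deviations −0.029, −0.068 and −0.013). For DMSO_NEUR and NEUR these correlations were −0.138, −0.111 and −0.121, against −0.019 to 0.177 for libraries with different numbers. A fit with the replicate block called 10553 genes over UNDIF, 41 over NEUR and 1.43% of ribosomal protein genes as rising.

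Values under the alternatives were tallied for 200 genes, which do not include every gene named in the text. Of these 3172 values, 3161 kept their direction and side of the threshold, none reversed or lost a call, and 11 gained one (of MSI1, PTCH1, LIN28B, SPRED1 or GAPDH). Of 4284 list counts 102 moved by over 1.5 times, nearly all in directions held by few members. Library totals put the rising share at 0% for KRAB partners, 4.55% for mitosis, 21.7% for cholesterol synthesis, 1.43% for ribosomal proteins and 10% for ribosome biogenesis. They put the falling share at 16% for Hippo genes, 18.8% for cyclins D and CDK inhibitors, 23.5% for the BCL2 family, 44.4% for DNA methylation, 31.2% for histone variants and 19.05% for intermediate filaments. Requiring a mean of 100 put the rising share at 0% for telencephalon, 28.6% for glia, 40% for LIM factors, 50% for PAX factors, 34.6% for synapse and 8.33% for channels. It put the falling share at 0% for mesenchyme, PAX, AP-1 and intermediate filaments, 17.6% for forkhead factors, 6.67% for the BCL2 family and 5.88% for annexins and S100. By edgeR, DESeq2 and the 6 libraries alone, 16% of Hippo genes and 12.5% of cyclins D and CDK inhibitors fell. Falls reached 31.2% of histone variants by edgeR and DESeq2, and 4.76% of annexins and S100 by DESeq2, TMM scaling and the 6 libraries alone. By edgeR 5.71% of ribosomal proteins rose. With 1 library left out, falls ranged over 0% to 5% for AP-1, 3.03% to 9.09% for the proteasome and 4.76% to 9.52% for annexins and S100, and rises over 1.43% to 4.29% for ribosomal proteins and 10% to 17.5% for ribosome biogenesis. Depth limits genes near the floor of 3 reads, whose fold changes depend on the pseudocount.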
